A study of Mus musculus with 35 samples.

Results

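The extracellular matrix and protease genes described here comprise structural proteins of the matrix, the enzymes that cross-link or cleave them, inhibitors of those enzymes and 1 matrix receptor. They were taken from a list of 43 gene symbols, of which 42 were represented among the 18193 genes measured. Each gene was represented by its brightest probe set on average, chosen separately for the surgery and the naive arrays, and the remaining listed gene, Loxl2, had no probe set that named it alone. RNA from brain hemispheres of male mice was hybridised to Affymetrix arrays, and every value below is a log2 signal, so that a difference of 1 is a doubling. The wild type (WT) mice were FVB mice, and the knockout (KO) mice, also on the FVB background, lacked the beta2 adrenergic receptor, a receptor for adrenaline and noradrenaline. Middle cerebral artery occlusion (MCAO), which blocks a large artery of the brain and produces an ischemic stroke, was performed in 7 WT and 7 KO samples. Sham surgery was performed in 3 WT and 3 KO samples, and 8 WT and 7 KO samples came from naive mice without surgery. RNA of the surgery groups came from the ischemic hemisphere, or the same-side hemisphere after sham surgery, 24 h later. The labels gave no age and did not state whether the arrays came from separate animals, so the p-values refer to array-to-array spread, which may be technical.

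The brain matrix consists of hyaluronan and the chondroitin sulfate proteoglycans that bind it, with a collagen IV, laminin and nidogen basement membrane around blood vessels and fibrillar collagen mainly in the meninges and the walls of larger vessels. Matrix metalloproteinases, ADAM and ADAMTS proteases and the plasminogen activators cut these proteins, and TIMP proteins inhibit the metalloproteinases. After ischemia, matrix proteases are known for their action on the vascular basement membrane and the blood-brain barrier.

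The markers of brain tissue fitted the label: in the sham arrays the mean of 8 neuron markers was 12.14 to 12.41 and that of 8 astrocyte markers 10.97 to 11.18, against a median of all probe sets of 6.34 to 6.42. In 3 pairs of MCAO arrays (WT arrays 1 and 2, KO arrays 1 and 6, and KO arrays 2 and 5) the standard deviation (SD) of the gene-wise differences was 0.134 to 0.157, and in every other pair of surgery arrays of the same group it was 0.194 to 0.496. The difference between the 3' and 5' probe sets of the actin control, a measure of RNA integrity, was 0.863 to 1.01 in WT sham, 1.60 to 1.76 in KO sham, 0.387 to 1.70 in WT MCAO and 0.426 to 1.75 in KO MCAO arrays. Naive array 6 of the wild type stood apart, with correlations of 0.801 to 0.828 to the other naive arrays, which correlated with each other at 0.982 to 0.999. Its actin difference was 4.88, against at most 0.722 in the other WT and 0.823 in the KO naive arrays. The surgery and naive arrays were normalized separately and are described apart.

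After MCAO, matrix and protease genes were called higher in both genotypes, led by the stromelysin gene Mmp3, the tenascin C gene Tnc, the aggrecanase gene Adamts1 and the integrin-binding secreted protein gene Tgfbi. A gene was called at a limma p under 0.05 after Benjamini-Hochberg adjustment over all 18193 genes. In the wild type 22 of the 42 genes were called higher and 1 lower, where 8.68% of all genes were called higher and 7.27% lower. In the knockout 26 were called higher and 1 lower, against 16.1% and 8.9% of all genes. The 42 genes were chosen with earlier results of these data known, so these shares are no test of the set. The median change of the 42 genes was 0.85 in the wild type and 0.96 in the knockout, and that of all genes was 0.05 and −0.0045. Every MCAO array lay above every sham array of its genotype for 25 genes in the wild type and 15 in the knockout, against 10.6% and 15.6% of all genes, and below for 1 gene in each, against 9.26% and 9.17%. Of the 42 genes, 20 were called higher in both genotypes, Bcan was called lower in both, and 13 were called in neither. Another 6 (Col1a2, Col3a1, Postn, Vcan, Ncan and Lum) were called higher in the knockout alone and 2 (Lox and Mmp12) in the wild type alone, but no difference between the genotypes' changes passed the test for any of the 42 genes. With each of the 3 close pairs of arrays averaged, a choice made after seeing the data, 21 genes were called higher in the wild type and 25 in the knockout. In a fit over all probe sets naming 1 gene, 31 of the 42 genes had 57 further probe sets. Where the brightest was called, 12 further ones had the same call and 11 had none in the wild type. In the knockout these numbers were 11 and 20, and 1 further probe set had the opposite call. In bulk tissue, a change in the number of cells of a type and a change in RNA per cell cannot be told apart.

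**Figure D1:**
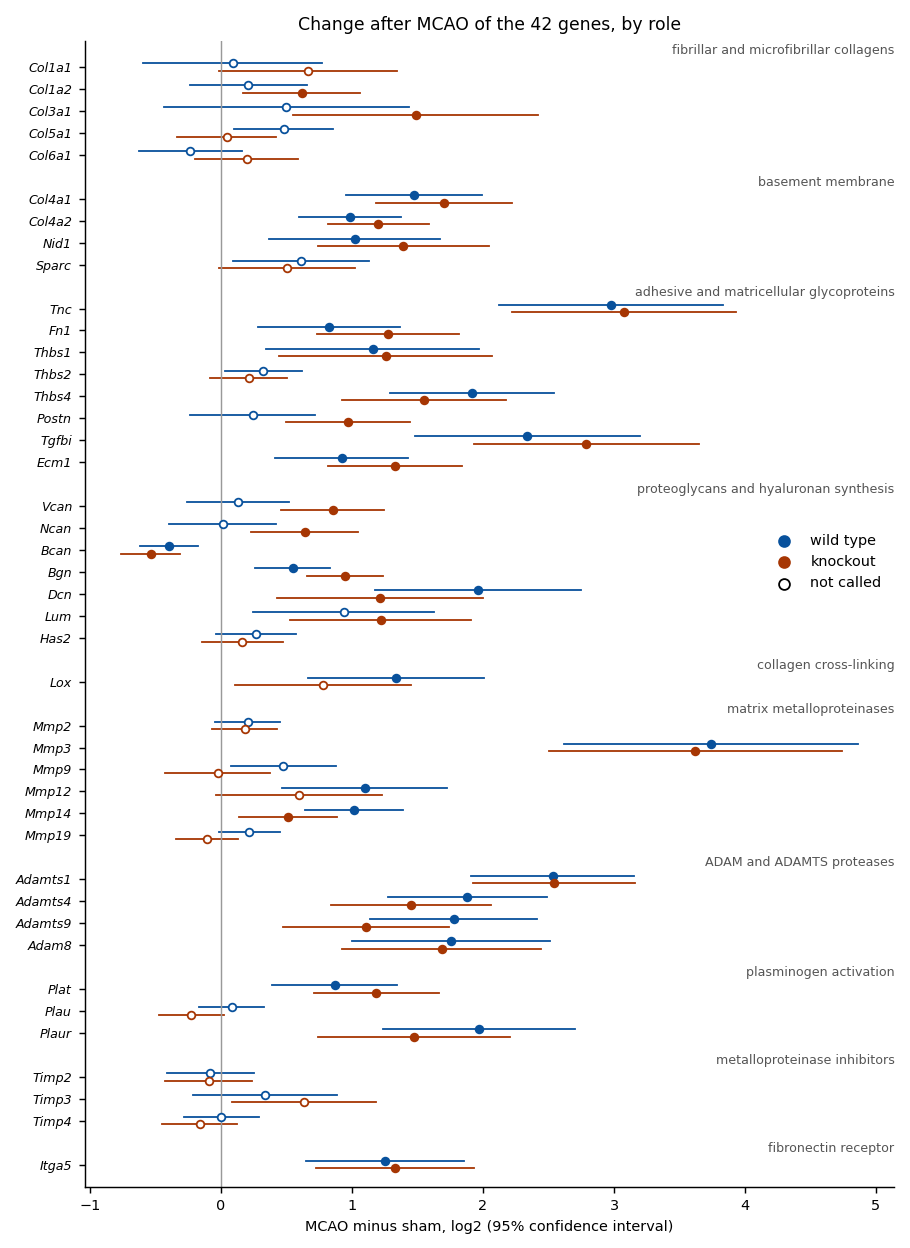
Change in log2 signal from sham surgery to MCAO of the 42 genes, grouped by role, with its 95% confidence interval from limma, in the wild type (blue, 7 MCAO and 3 sham arrays) and the knockout (brown, 7 and 3). Filled points passed an adjusted p of 0.05. Mmp3 and Tnc lie farthest to the right in both genotypes, Bcan is the only gene with filled points left of 0, and the 3 TIMP genes have open points only.

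Among the fibrillar and microfibrillar collagens, which give tissues tensile strength, none of 5 genes was called in the wild type and 2 were called higher in the knockout. Col3a1, which encodes the chain of type III collagen, measured 6.50, 7.06 and 6.59 in the WT sham arrays and 6.67, 6.10 and 6.14 in the KO sham arrays. After MCAO it ranged from 5.92 to 8.37 (median 7.40) in the wild type and from 6.38 to 8.46 (median 8.07) in the knockout. The MCAO and sham values of Col3a1 overlapped in both genotypes. Its change was 0.50 ± 0.45 (standard error, SE) in the wild type (limma, adjusted p = 0.465) and 1.49 ± 0.45 in the knockout (adjusted p = 0.0208), a 2.8-fold rise that was no longer called without KO sham array 2 (limma, adjusted p = 0.0901) or KO sham array 3 (adjusted p = 0.0902). With the actin 3' minus 5' difference as a covariate, a choice made after seeing the data, the KO change of Col3a1 was 1.34 and not called (limma, adjusted p = 0.0922). Col1a2, the second chain of type I collagen, rose by 0.61 ± 0.21 in the knockout (limma, adjusted p = 0.0401). The call was lost without any of 7 arrays (KO sham 1, 2 or 3, KO MCAO 2, 3, 4 or 5). It was also lost with the probe sets of Col1a2 averaged (0.42), after repeated quantile normalization (0.45), with the close pairs averaged (0.59) and with the actin covariate (0.51). A dim probe set of Col1a2 (mean signal 3.78) changed by −0.01 in the knockout. A brighter one (5.82) changed by 0.65 and was not called (limma over all probe sets naming 1 gene, adjusted p = 0.118). Col1a1, the main chain of type I collagen, measured 6.34, 6.20 and 6.08 in WT sham, 6.38, 6.47 and 5.90 in KO sham, 5.44 to 7.42 (median 6.31) in WT MCAO and 6.31 to 7.70 (median 6.91) in KO MCAO arrays. The groups overlapped, and the change of Col1a1 was 0.09 ± 0.33 in the wild type and 0.66 ± 0.33 in the knockout, neither called. Col5a1 and Col6a1, chains of collagens V and VI, changed by 0.48 and −0.23 in the wild type and by 0.04 and 0.20 in the knockout, also not called. The WT change of Col5a1 passed the test without KO MCAO array 4, with arrays weighted by limma's estimate of their quality, with only the WT arrays fitted and with the actin covariate (0.41 to 0.50; limma, adjusted p = 0.0194 to 0.0434).

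The fibrillar collagens varied widely between MCAO arrays, and the collagens and markers of meningeal fibroblasts were high in some of the same arrays. Across the 14 MCAO arrays, after removal of each genotype's mean, Col1a1 and Col1a2 correlated with Pearson's r = 0.875 and Spearman's rho = 0.873 (permutation test, adjusted p = 9e-04 and 0.00186 over 6 pairs of genes). The correlation was 0.861 without the 2 arrays farthest from the median of Col1a1, 0.944 within the wild type and 0.754 within the knockout, where it did not pass adjustment (exact permutation test, n = 7, adjusted p = 0.0601). With the close pairs of arrays averaged, r of Col1a1 and Col1a2 was 0.862 (permutation test, n = 11, adjusted p = 0.00894). Col1a1 was highest in WT MCAO arrays 1 and 2 (7.42 and 6.84) and in KO MCAO arrays 5 and 2 (7.70 and 7.37). WT MCAO arrays 1 and 2 are a close pair, as are KO MCAO arrays 2 and 5 (SD of the gene-wise differences 0.134 and 0.157). The arrays of such a pair may not be independent, so their likeness in collagens and markers may not count separately. The mean of 7 meningeal fibroblast markers was 7.29 and 7.22 in those WT arrays and 7.13 to 7.19 in KO arrays 2 to 5, against 6.47 to 6.87 in the other 5 WT MCAO arrays, 6.31 to 6.66 in KO arrays 1, 6 and 7, and 6.35 to 6.52 in all 6 sham arrays. In the MCAO comparisons 2 of these 7 markers were called higher in each genotype. The part of these markers in the collagen values was not tested. Dcn, which fibroblasts also express, correlated with Col1a1 across the 14 MCAO arrays at r = 0.0552 and rho = 0.0198 (permutation test, adjusted p = 0.839 and 0.949). Without the 2 arrays farthest from the median of Col1a1, r was 0.181. It was 0.601 within the wild type and −0.158 within the knockout (exact permutation test, adjusted p = 0.206 and 0.724). Dcn was low (9.51 and 9.63) in KO MCAO arrays 2 and 5, where Col1a1 was high.

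**Figure D2:**
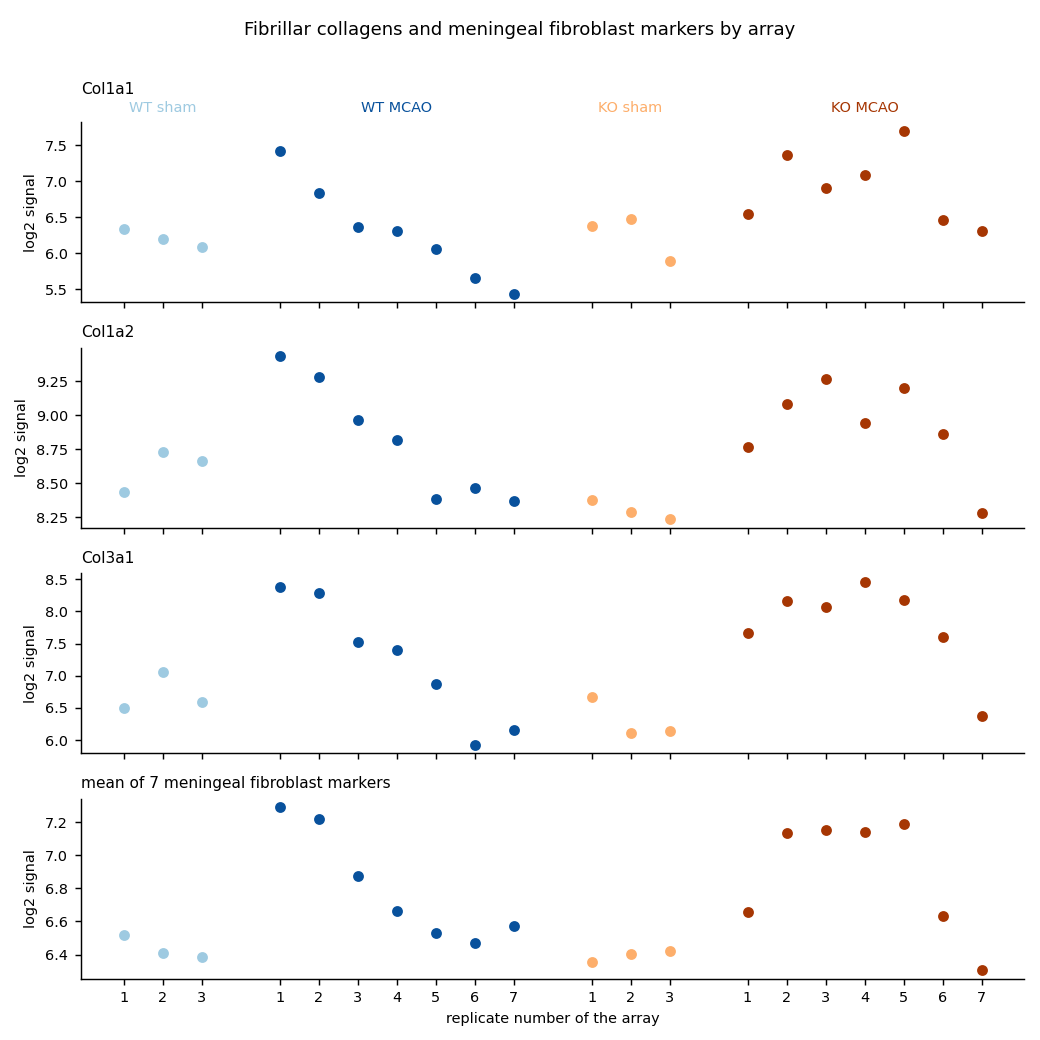
Log2 signal of Col1a1, Col1a2, Col3a1 and the mean of 7 meningeal fibroblast markers in each of the 20 surgery arrays (1 point per array, by replicate number within its group). The 3 collagens and the marker mean were high in WT MCAO arrays 1 and 2 and low in KO MCAO array 7, where the marker mean was 6.31.

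Of the 4 basement membrane genes, 3 were called higher in each genotype. Col4a1 and Col4a2 encode the chains of the collagen IV network that underlies brain endothelium. Col4a1 measured 9.04, 9.69 and 9.14 in WT sham and 9.29, 8.88 and 8.92 in KO sham arrays, and after MCAO 10.62 to 10.98 (median 10.72) in the wild type and 9.76 to 11.39 (median 10.89) in the knockout. No MCAO value of Col4a1 overlapped with sham. The rise of Col4a1 was 1.47 ± 0.25 in the wild type (2.78-fold, limma adjusted p = 0.000439) and 1.70 ± 0.25 in the knockout (3.25-fold, adjusted p = 7.16e-05). Col4a2 measured 8.71, 8.87 and 8.51 in WT sham, 8.75, 8.51 and 8.48 in KO sham, 9.61 to 9.85 (median 9.65) in WT MCAO and 8.96 to 10.22 (median 9.96) in KO MCAO arrays. It rose by 0.99 ± 0.19 and 1.20 ± 0.19, also with no overlap between the groups. The promoter table of RefSeq (GRCm38.p6) placed the annotated starts of Col4a1 and Col4a2 on opposite strands of chromosome 8, 21 bases apart. Nid1, nidogen, which links collagen IV to laminin, rose by 1.02 ± 0.31 and 1.39 ± 0.31 with overlapping groups; the WT call was lost without WT sham array 1 (0.89, limma adjusted p = 0.153) or 3 (0.93, adjusted p = 0.119). With the probe sets averaged the KO change was 0.54 (limma, adjusted p = 0.0518), and with the close pairs averaged the WT change was 1.03 (adjusted p = 0.0503). A dim probe set of Nid1 (mean signal 3.43) changed by −0.05 in the knockout. A brighter one (6.83) changed by 0.27 in the knockout, not called, and rose by 0.75 in the wild type (limma over all probe sets naming 1 gene, adjusted p = 0.383 and 0.0275). Sparc, a collagen-binding protein of vessels and glia, measured 10.70, 11.27 and 10.86 in WT sham, 11.07, 10.81 and 11.12 in KO sham, 11.32 to 11.96 (median 11.47) in WT MCAO and 10.83 to 12.34 (median 11.54) in KO MCAO arrays. Its change of 0.61 ± 0.25 in the wild type, with no overlap, and of 0.50 ± 0.25 in the knockout, with overlap, were not called (limma, adjusted p = 0.102 and 0.142). With array weights Sparc passed the test in both genotypes (adjusted p = 0.0191 and 0.0457), and in the wild type also with only its own arrays fitted (adjusted p = 0.0236).

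Of the 8 adhesive and matricellular glycoprotein genes, which modulate how cells attach to the matrix, 6 were called higher in the wild type and 7 in the knockout. Tnc encodes tenascin C, an anti-adhesive protein of developing and injured tissue. It measured 5.39, 5.33 and 5.84 in WT sham and 5.09, 5.69 and 5.96 in KO sham arrays. After MCAO it ranged from 7.90 to 8.91 (median 8.51) in the wild type and from 7.41 to 9.89 (median 9.20) in the knockout, apart from sham in both. The rise of Tnc was 2.98 ± 0.41 (7.88-fold, limma adjusted p = 5.83e-05) in the wild type and 3.08 ± 0.41 (8.45-fold, adjusted p = 2.8e-05) in the knockout. Tgfbi, a secreted protein that binds collagens and integrins, measured 6.18, 6.39 and 5.93 in WT sham and 5.90, 5.79 and 6.10 in KO sham arrays. Its MCAO values were 7.34 to 9.09 (median 8.72) in the wild type and 7.49 to 9.77 (median 9.01) in the knockout, again without overlap. Tgfbi rose by 2.34 ± 0.41 (5.05-fold, limma adjusted p = 0.000662) and by 2.79 ± 0.41 (6.91-fold, adjusted p = 7.62e-05), and its 4 probe sets rose in both genotypes.

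Thbs4, a thrombospondin with a role in synapse formation and tissue repair, measured 6.79, 6.002 and 6.56 in WT sham and 5.997, 6.15 and 6.42 in KO sham arrays. It reached 7.49 to 9.39 (median 8.53) in WT MCAO and 7.24 to 8.22 (median 7.70) in KO MCAO arrays, above sham throughout. The rises of Thbs4 were 1.91 ± 0.30 (3.77-fold, limma adjusted p = 0.000215) and 1.55 ± 0.30 (2.93-fold, adjusted p = 0.000932). Thbs1, which activates latent TGF-beta and inhibits vessel growth, rose by 1.16 ± 0.39 and 1.26 ± 0.39; its WT call (limma, adjusted p = 0.0473) was lost without any of 14 arrays (adjusted p up to 0.153: each sham array, WT MCAO 2 to 7, KO MCAO 1 and 6), and its KO call without any KO sham array (adjusted p = 0.0541 to 0.0953). The WT call of Thbs1 was also lost with an intensity trend (limma, adjusted p = 0.0638) and with centred arrays (adjusted p = 0.0580), and the KO call with only the KO arrays fitted (adjusted p = 0.0750). Another probe set of Thbs1 rose by 1.92 in the wild type and 1.52 in the knockout (limma over all probe sets naming 1 gene, adjusted p = 0.0112 and 0.0282). Fn1, fibronectin, rose by 0.82 ± 0.26 and 1.27 ± 0.26, and Ecm1, extracellular matrix protein 1, by 0.92 ± 0.25 and 1.33 ± 0.25, all without overlap. In the wild type the call of Fn1 was lost without any of 7 arrays (each WT sham array, WT MCAO 4 to 7; limma, adjusted p up to 0.143) and with centred arrays (adjusted p = 0.0501), and that of Ecm1 without WT sham array 3 (adjusted p = 0.111). Postn, periostin, a collagen-binding protein of fibroblasts, rose by 0.97 ± 0.23 in the knockout and changed by 0.24 ± 0.23 in the wild type. Thbs2, a relative of Thbs1, measured 5.80, 5.68 and 5.83 in WT sham, 5.76, 5.97 and 5.99 in KO sham, 5.88 to 6.36 (median 6.08) in WT MCAO and 5.56 to 6.52 (median 6.19) in KO MCAO arrays. The WT groups did not overlap and the KO groups did, and neither change of Thbs2 (0.32 ± 0.14 and 0.21 ± 0.14) was called, although with array weights that in the wild type was (limma, adjusted p = 0.0318). Another probe set of Thbs2, with a mean signal of 5.91 against 6.03, rose by 0.67 in the knockout (limma over all probe sets naming 1 gene, adjusted p = 0.0180).

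**Figure D3:**
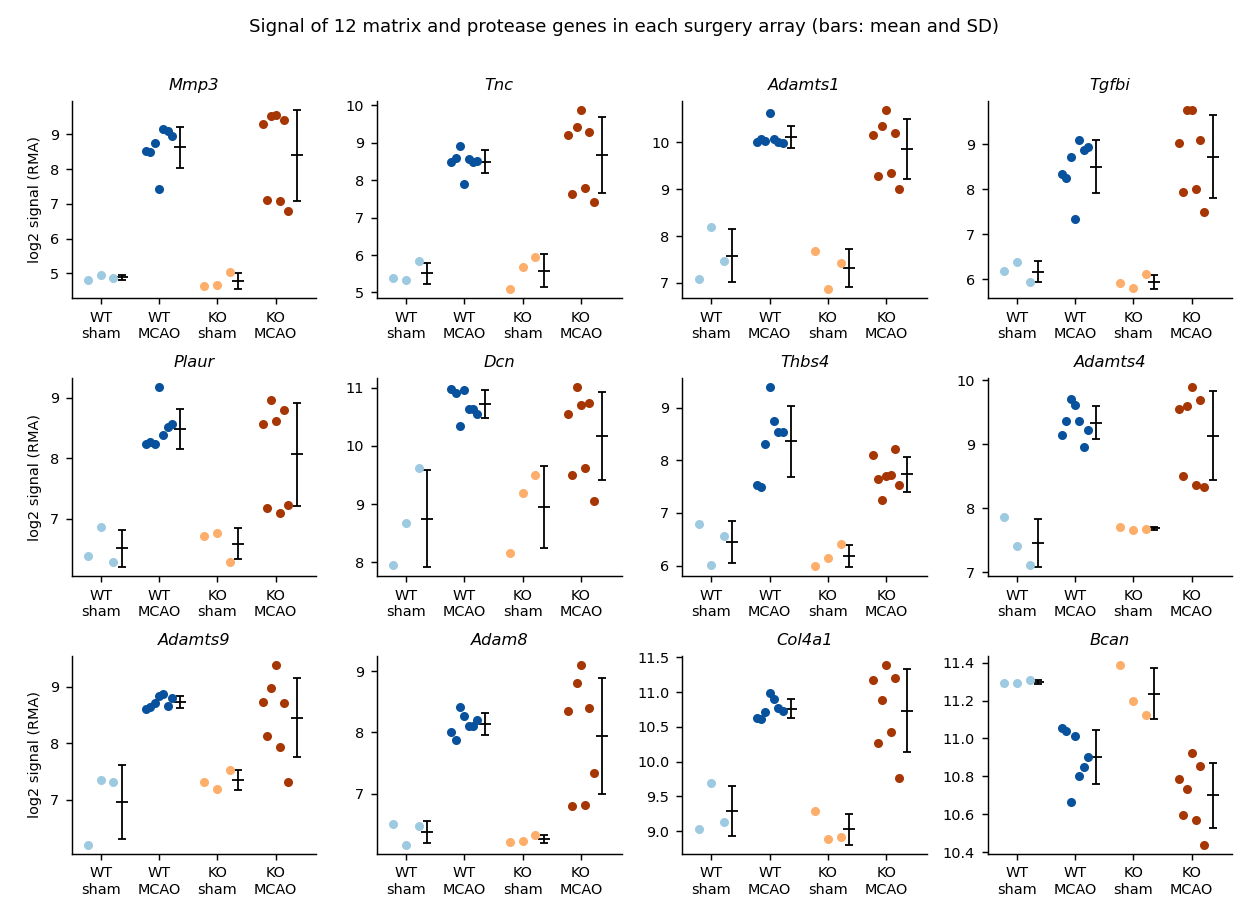
Log2 signal of 12 genes in each surgery array (points; 3 sham and 7 MCAO arrays per genotype), with the group mean and SD in black; the log2 axes do not start at 0. Mmp3, Tnc, Adamts1 and Tgfbi lay above sham in every MCAO array, Bcan lay below sham in every MCAO array, and the KO MCAO values of Mmp3 fell into a low range (6.81 to 7.12) and a high range (9.31 to 9.56).

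The proteoglycan genes changed in both directions. Among 7 genes of proteoglycans and hyaluronan synthesis, 2 were called higher and 1 lower in the wild type, and 5 higher and 1 lower in the knockout. Bcan encodes brevican, a chondroitin sulfate proteoglycan of the perineuronal matrix. It measured 11.29, 11.29 and 11.31 in WT sham and 11.39, 11.20 and 11.12 in KO sham arrays, and 10.67 to 11.06 (median 10.90) in WT MCAO and 10.44 to 10.92 (median 10.73) in KO MCAO arrays. All MCAO values of Bcan were below those of sham. The change was −0.39 ± 0.11 in the wild type (1.31-fold lower, limma adjusted p = 0.0157) and −0.54 ± 0.11 in the knockout (1.45-fold lower, adjusted p = 0.00117). Without WT sham array 1, 2 or 3 the WT call was lost, with changes of −0.40, −0.40 and −0.39 (limma, adjusted p = 0.0608, 0.0532 and 0.0603), as it was after repeated quantile normalization (−0.29, adjusted p = 0.0951).

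Dcn, decorin, a small leucine-rich proteoglycan that binds collagen fibrils and TGF-beta, measured 7.96, 8.68 and 9.62 in WT sham and 8.17, 9.19 and 9.503 in KO sham arrays. It was 10.34 to 10.97 (median 10.64) in WT MCAO arrays, above sham, and 9.06 to 11.00 (median 10.55) in KO MCAO arrays, overlapping sham. Dcn rose by 1.96 ± 0.38 in the wild type (3.89-fold, limma adjusted p = 0.00136) and by 1.21 ± 0.38 in the knockout (2.32-fold, adjusted p = 0.0237). The KO call was lost without KO sham array 1 (change 0.82, limma adjusted p = 0.167) or array 2 (1.33, adjusted p = 0.0536). It was also lost with the probe sets of Dcn averaged (0.61, limma adjusted p = 0.0581), after repeated quantile normalization (1.05, adjusted p = 0.0664) and with only the KO arrays fitted (1.21, adjusted p = 0.0541). Bgn, biglycan, a relative of decorin, measured 7.58, 7.67 and 7.59 in WT sham, 7.42, 7.31 and 7.53 in KO sham, 7.92 to 8.38 (median 8.14) in WT MCAO and 7.85 to 8.75 (median 8.36) in KO MCAO arrays. It rose by 0.55 ± 0.14 and 0.95 ± 0.14 with no overlap in either genotype; its WT call was lost without WT sham array 1 (limma, adjusted p = 0.0530). Lum, lumican, rose by 1.22 ± 0.33 in the knockout and changed by 0.94 ± 0.33 in the wild type (limma, adjusted p = 0.0593); its KO call was lost without KO sham array 1 (adjusted p = 0.0643) or 2 (adjusted p = 0.0571). The WT change of Lum passed the test without WT MCAO array 6 or KO MCAO array 4 or 7, with array weights and with only the WT arrays fitted (limma, adjusted p = 0.00682 to 0.0455). The large chondroitin sulfate proteoglycans versican (Vcan) and neurocan (Ncan) rose in the knockout by 0.85 ± 0.19 and 0.64 ± 0.20 and changed in the wild type by 0.13 ± 0.19 and 0.01 ± 0.20. The Ncan call was lost without KO sham array 2 (limma, adjusted p = 0.0803) or 3 (adjusted p = 0.0976), after repeated quantile normalization (0.47, adjusted p = 0.0825), with only the KO arrays fitted (0.64, adjusted p = 0.0623) and with the actin covariate (0.68, adjusted p = 0.0517). With their probe sets averaged, neither Ncan (0.16, limma adjusted p = 0.379) nor Vcan (0.09, adjusted p = 0.466) was called in the knockout. For Vcan and Ncan some of the other probe sets changed in the opposite direction in the knockout, and 1 of Vcan (mean signal 4.68) passed the test with a change of −0.46. The brightest other probe set of Vcan (mean signal 6.07) changed by 0.63 and was not called. Has2, a hyaluronan synthase, measured 5.14, 5.05 and 4.84 in WT sham, 5.18, 5.09 and 5.29 in KO sham, 5.12 to 5.48 (median 5.24) in WT MCAO and 4.73 to 5.72 (median 5.32) in KO MCAO arrays. These values overlapped, and the changes of Has2 (0.27 ± 0.15 and 0.16 ± 0.15) were not called.

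Lox, lysyl oxidase, which cross-links collagen and elastin, measured 5.49, 5.20 and 5.62 in WT sham, 6.02, 6.01 and 5.73 in KO sham, 6.20 to 7.88 (median 6.47) in WT MCAO and 5.54 to 7.32 (median 6.92) in KO MCAO arrays. It rose by 1.34 ± 0.32 in the wild type (2.52-fold, limma adjusted p = 0.00753) without overlap and changed by 0.78 ± 0.32 in the knockout (adjusted p = 0.0805) with overlap. The KO change of Lox passed the test without WT MCAO array 4 or KO MCAO array 7, with array weights and with the actin covariate (0.78 to 1.16; limma, adjusted p = 0.0104 to 0.0386).

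Mmp3 rose more than any other of the 42 genes in both genotypes. It encodes stromelysin 1, a metalloproteinase that cuts proteoglycans, laminin and other proteases' proforms. Mmp3 measured 4.83, 4.97 and 4.88 in WT sham and 4.63, 4.67 and 5.05 in KO sham arrays. After MCAO it ranged from 7.42 to 9.15 (median 8.75) in the wild type and from 6.81 to 9.56 (median 9.31) in the knockout. No MCAO value came near the sham values, and the rise was 3.74 ± 0.54 in the wild type (13.4-fold, limma adjusted p = 9e-05) and 3.62 ± 0.54 in the knockout (12.3-fold, adjusted p = 8.11e-05). Of the other matrix metalloproteinases in the list, Mmp14, a membrane-bound collagenase that activates pro-MMP2, measured 7.23, 7.55 and 7.20 in WT sham, 7.89, 7.66 and 7.51 in KO sham, 8.20 to 8.51 (median 8.33) in WT MCAO and 7.76 to 8.84 (median 8.23) in KO MCAO arrays. It rose by 1.01 ± 0.18 in the wild type without overlap. In the knockout it rose by 0.51 ± 0.18 (limma, adjusted p = 0.0421) with overlapping groups, and that call was lost without any of 6 arrays (KO sham 2 or 3, KO MCAO 1, 3, 4 or 6; adjusted p = 0.0517 to 0.195). It was also lost with the probe sets of Mmp14 averaged (0.19, limma adjusted p = 0.518), after repeated quantile normalization (0.40, adjusted p = 0.112), with only the KO arrays fitted (adjusted p = 0.104) and with the actin covariate (0.47, adjusted p = 0.137). Mmp12, the macrophage elastase, measured 4.96, 4.95 and 5.07 in WT sham, 4.97, 5.20 and 5.44 in KO sham, 5.78 to 6.79 (median 6.04) in WT MCAO and 4.97 to 6.68 (median 5.98) in KO MCAO arrays. The WT groups were apart and the KO groups overlapped. Mmp12 rose by 1.10 ± 0.30 in the wild type (limma, adjusted p = 0.0175) and changed by 0.59 ± 0.30 in the knockout; the WT call was lost without any WT sham array (limma, adjusted p = 0.0527 to 0.0730). Mmp9, the inducible gelatinase, measured 5.65, 5.50 and 5.91 in WT sham, 5.90, 6.07 and 6.38 in KO sham, 5.64 to 6.72 (median 6.14) in WT MCAO and 5.68 to 6.57 (median 5.96) in KO MCAO arrays. Its MCAO and sham values overlapped in both genotypes, and its changes of 0.48 ± 0.19 and −0.02 ± 0.19 were not called (limma, adjusted p = 0.0969 and 0.942). The WT change passed the test without WT MCAO array 5 (0.56, limma adjusted p = 0.0414) and with array weights (0.46, adjusted p = 0.0241). Mmp2, the constitutive gelatinase, and Mmp19 changed by 0.21 and 0.22 in the wild type and by 0.18 and −0.11 in the knockout, without a call.

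All 4 ADAM and ADAMTS genes of the list were called higher in both genotypes. Adamts1, an aggrecanase that cleaves versican and other lecticans, measured 7.08, 8.20 and 7.47 in WT sham and 7.67, 6.87 and 7.42 in KO sham arrays. Its MCAO values were 9.99 to 10.63 (median 10.03) in the wild type and 9.01 to 10.70 (median 10.16) in the knockout. They lay above all sham values, with rises of 2.53 ± 0.30 (5.78-fold, limma adjusted p = 1.21e-05) and 2.54 ± 0.30 (5.83-fold, adjusted p = 6.67e-06). Adamts4, a further aggrecanase, which also cleaves brevican, measured 7.86, 7.40 and 7.11 in WT sham, 7.71, 7.66 and 7.68 in KO sham, 8.95 to 9.70 (median 9.35) in WT MCAO and 8.34 to 9.89 (median 9.55) in KO MCAO arrays. The rises of Adamts4 were 1.88 ± 0.29 (3.68-fold, limma adjusted p = 0.000192) and 1.45 ± 0.29 (2.73-fold, adjusted p = 0.00128), with no overlap.

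Adamts9, a versican- and aggrecan-cleaving protease, measured 6.20, 7.36 and 7.31 in WT sham and 7.31, 7.19 and 7.53 in KO sham arrays. It was 8.61 to 8.87 (median 8.72) in WT MCAO arrays, apart from sham, and 7.30 to 9.38 (median 8.70) in KO MCAO arrays, where array 7 fell within the sham range. Adamts9 rose by 1.78 ± 0.31 (3.43-fold, limma adjusted p = 0.000519) and by 1.11 ± 0.31 (2.15-fold, adjusted p = 0.0124); without KO sham array 2 the KO call was lost (adjusted p = 0.0655). Adam8, a membrane protease of leukocytes and activated microglia, measured 6.50, 6.17 and 6.47 in WT sham, 6.21, 6.23 and 6.33 in KO sham, 7.88 to 8.41 (median 8.10) in WT MCAO and 6.80 to 9.10 (median 8.35) in KO MCAO arrays. All MCAO values of Adam8 were above sham, with rises of 1.76 ± 0.36 (3.38-fold, limma adjusted p = 0.00242) and 1.68 ± 0.36 (3.21-fold, adjusted p = 0.00226).

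In the plasminogen activation system the receptor and the tissue-type activator were called higher and the urokinase gene was not. Plaur encodes the receptor that holds urokinase at the cell surface. It measured 6.38, 6.86 and 6.29 in WT sham and 6.72, 6.76 and 6.30 in KO sham arrays, and 8.23 to 9.17 (median 8.39) in WT MCAO and 7.09 to 8.97 (median 8.57) in KO MCAO arrays, with no overlap. Plaur rose by 1.97 ± 0.35 (3.92-fold, limma adjusted p = 0.00076) and by 1.47 ± 0.35 (2.78-fold, adjusted p = 0.00477). Plat, tissue-type plasminogen activator, rose by 0.87 ± 0.23 in the wild type and by 1.19 ± 0.23 in the knockout, although another of its probe sets changed by −0.17 in the knockout. The WT call of Plat was lost without WT sham array 1 (limma, adjusted p = 0.0865) or 3 (adjusted p = 0.0532). Plau, urokinase, measured 4.74, 4.67 and 4.89 in WT sham, 4.96, 4.89 and 5.06 in KO sham, 4.44 to 5.10 (median 4.87) in WT MCAO and 4.53 to 4.92 (median 4.76) in KO MCAO arrays. The groups overlapped, and the changes of Plau were 0.08 ± 0.12 and −0.23 ± 0.12. Across the 14 MCAO arrays Plau and Plaur correlated with r = 0.0698 and rho = 0.156 (permutation test, adjusted p = 0.839 and 0.698). Without the 2 arrays farthest from the median of Plau, r was 0.214. It was 0.587 within the wild type and −0.232 within the knockout (exact permutation test, adjusted p = 0.206 and 0.724).

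None of the 3 listed metalloproteinase inhibitor genes was called. Timp3, the inhibitor that is bound to the matrix, measured 8.77, 8.85 and 8.60 in WT sham, 8.65, 8.54 and 8.73 in KO sham, 8.44 to 9.99 (median 8.998) in WT MCAO and 8.55 to 10.03 (median 9.16) in KO MCAO arrays. MCAO and sham overlapped, and the changes of Timp3 were 0.34 ± 0.27 and 0.63 ± 0.27 (limma, adjusted p = 0.402 and 0.0834). The KO change of Timp3 passed the test without WT MCAO array 4 (0.63, limma adjusted p = 0.0399) or KO MCAO array 7 (0.75, adjusted p = 0.0316) and with array weights (0.62, adjusted p = 0.00791). Timp2 changed by −0.08 and −0.09, and Timp4 by 0.00 (0.0022) and −0.16, with 95% confidence intervals between −0.45 and 0.29 in the 4 comparisons. Itga5, the alpha chain of the fibronectin receptor, measured 6.13, 5.85 and 5.73 in WT sham, 6.27, 6.08 and 6.17 in KO sham, 6.71 to 7.44 (median 7.16) in WT MCAO and 6.31 to 8.22 (median 7.73) in KO MCAO arrays. It rose by 1.25 ± 0.29 in the wild type (limma, adjusted p = 0.00568) and by 1.33 ± 0.29 in the knockout (adjusted p = 0.00243), without overlap. The other, dimmer probe sets of Itga5 changed by 0.22, 0.09 and 0.34 in the knockout, none called. In the wild type they changed by 0.56, 0.38 and 0.63, and only the last was called.

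Promoter sequence was available for 29 of the 42 genes, as the stretch from 250 bases before to 50 bases after an annotated start (RefSeq, GRCm38.p6). The AP-1 motif TGAGTCA, searched on both strands so that its reverse complement TGACTCA counts too, was found in 5 of these 29 genes and in 5.95% of all 27025 genes with such a stretch. The 5 genes were Mmp3, Mmp12, Plaur, Ecm1 and Col6a1. The first 4 were called higher after MCAO in the wild type, as were 22 of all 42 genes. The 42 include genes without such a stretch, which were not searched. In the knockout Mmp3, Plaur and Ecm1 were called higher and Mmp12 was not, where 26 of all 42 genes were called higher. Col6a1 was called in neither. The stretches from 20 bases before the motif up to the base before the start are shown, with the motif in capitals, because they show how close to the start it lies. It ended 39 bases before the start in Mmp3, 37 in Mmp12, 62 in Plaur, 57 in Ecm1 and 83 in Col6a1. In order they lie at chr9:7445756-7445821 (plus strand), chr9:7347310-7347373 (plus), chr7:24462394-24462482 (plus), chr3:95739570-95739653 (minus) and chr10:76726045-76726154 (minus).
Mmp3: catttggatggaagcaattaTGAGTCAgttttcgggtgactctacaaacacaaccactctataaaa
Mmp12: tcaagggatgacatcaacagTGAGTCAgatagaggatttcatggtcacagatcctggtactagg
Plaur: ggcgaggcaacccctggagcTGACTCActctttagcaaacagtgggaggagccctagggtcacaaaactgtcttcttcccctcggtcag
Ecm1: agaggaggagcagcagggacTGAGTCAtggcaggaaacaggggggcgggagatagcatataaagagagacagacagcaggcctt
Col6a1: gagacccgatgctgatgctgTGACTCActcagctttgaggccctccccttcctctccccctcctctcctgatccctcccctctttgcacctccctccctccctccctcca
A match describes the letters of these stretches only, and no binding was measured.

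The genotypes were then compared. The difference between the MCAO changes of KO and WT, tested as an interaction, passed the threshold for none of the 42 genes, against 9.59% of all genes. At an unadjusted p under 0.05, 3 of the 42 differed, against 31.5% of all genes. These 3 were Vcan, with a change 0.72 ± 0.27 larger in the knockout (limma, adjusted p = 0.0781), Postn, 0.73 ± 0.32 larger (adjusted p = 0.129), and Ncan, 0.63 ± 0.28 larger (adjusted p = 0.130). The Vcan difference was called without KO sham array 1 (0.90, limma adjusted p = 0.0490) and without KO MCAO array 7 (0.84, adjusted p = 0.0342). The intervals were wide for the genes that rose most: the 95% confidence interval of the difference was −1.70 to 1.46 for Mmp3, −1.11 to 1.31 for Tnc, −0.76 to 1.66 for Tgfbi and −0.87 to 0.89 for Adamts1. It was −0.51 to 0.96 for Col4a1.

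**Figure D4:**
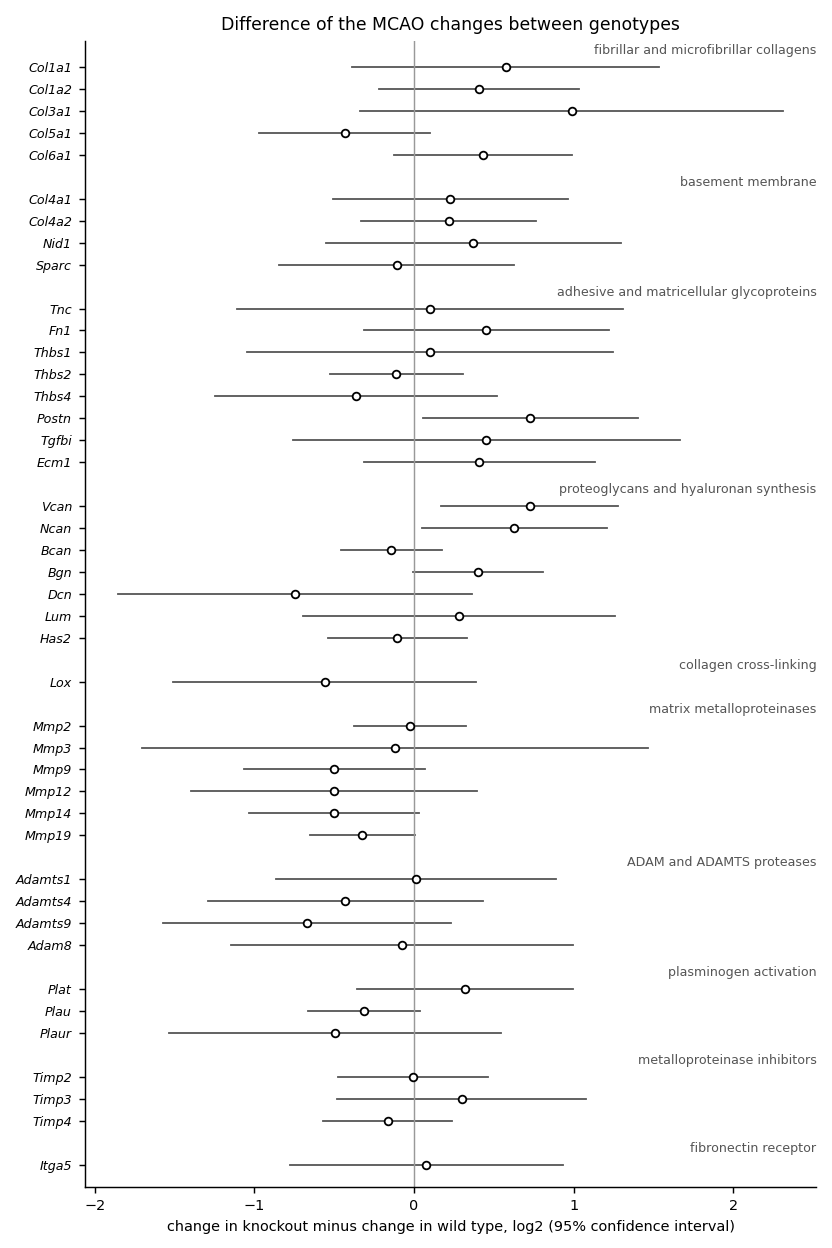
Change after MCAO in the knockout minus change in the wild type, in log2, with the 95% confidence interval, for the 42 genes by role. Open points mark that none passed an adjusted p of 0.05; the intervals of Vcan, Postn and Ncan lie right of 0, and that of Mmp3 runs from −1.70 to 1.46.

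Between KO and WT after MCAO, none of the 42 genes was called, against 0.044% of all genes, and 4 had an unadjusted p under 0.05, against 17.4% of all genes. They were Ncan, 0.59 ± 0.15 higher in the knockout (limma, adjusted p = 0.117), Thbs4, −0.62 ± 0.23 (adjusted p = 0.194), Col1a1, 0.62 ± 0.25 (adjusted p = 0.228), and Bcan, −0.20 ± 0.08 (adjusted p = 0.224). All 42 genes overlapped between the genotypes after MCAO, as did nearly all genes. Of all 18193 genes, 45 lay entirely higher and 22 entirely lower in the knockout. The Ncan difference was called without KO MCAO array 7 (0.69, limma adjusted p = 0.0493). With the actin covariate, Ncan (0.59, limma adjusted p = 0.0380) and Thbs4 (−0.74, adjusted p = 0.0226) were called, where 5.42% of all genes were called. After sham surgery none of the 42 genes was called between the genotypes, against 6.05% of all genes, and Postn (−0.69 ± 0.27) and Vcan (−0.51 ± 0.22) had an unadjusted p under 0.05, against 25.8% of all genes. Without KO sham array 1 the Postn difference was called (−0.97, limma adjusted p = 0.0449). With the actin covariate, none of the 42 genes was called between the genotypes after sham surgery. The actin difference was higher in all 3 KO sham arrays than in any WT sham array, so within the sham arrays it cannot be told apart from genotype.

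The KO MCAO arrays were less alike than the WT MCAO arrays for these genes. The SD over 7 arrays was larger in the knockout for 34 of the 42 genes, with a median of 0.489 against 0.261 in the wild type; over all 18193 genes it was larger in the knockout for 45.6%, with medians of 0.185 and 0.198. Mmp3 had the largest SD in the knockout, 1.32, with 9.31, 7.12, 9.54, 9.56, 7.08, 9.40 and 6.81 in KO MCAO arrays 1 to 7. Of the 20 genes called higher in both genotypes, 15 were lowest in KO MCAO array 7 and 12 highest in array 4. The mean of these 20 genes was 9.07, 8.17, 9.24, 9.47, 8.20, 9.13 and 7.83 in KO MCAO arrays 1 to 7, whereas the WT MCAO arrays lay between 8.71 and 8.95 and the sham arrays of both genotypes between 7.02 and 7.26. The KO arrays thus fell into a low range (arrays 2, 5 and 7) and a high range (arrays 1, 3, 4 and 6). The 20 genes were chosen as higher than sham in both genotypes, so their distance from sham is no separate result. Arrays 2 and 5 are among the close pairs, as are arrays 1 and 6.

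The means of some marker lists separated the same KO MCAO arrays, and those of others did not. The mean of 9 endothelial markers was 8.02, 7.90 and 7.82 in arrays 2, 5 and 7 and 8.41 to 8.78 in the other 4, against 7.65 to 7.98 in all sham arrays. The mean of 9 infiltrating myeloid markers was 5.37, 5.40 and 5.21 in arrays 2, 5 and 7 and 5.88 to 6.12 in the other 4, against 5.34 to 5.52 in KO sham and 5.15 to 5.22 in WT sham arrays. In WT MCAO these means were 8.12 to 9.02 and 5.90 to 6.83. The myeloid separation lay in S100a8 and S100a9, calgranulins of neutrophils, which were 5.50 to 6.45 in arrays 2, 5 and 7 and 7.74 to 9.09 in the other 4. The mean of the other 7 myeloid markers was 5.11, 5.23 and 5.12 against 5.20 to 5.37, with overlap; Ccr2 was 7.01 to 7.21 against 6.80 to 7.15. The mean of 6 oligodendrocyte markers was 11.16, 11.21 and 11.19 in arrays 2, 5 and 7 and 11.40 to 11.71 in the other 4, and that of 8 neuron markers was 12.22, 12.185 and 12.15 against 11.99 to 12.06. Single markers overlapped, namely Mbp, Mog and Mag of the oligodendrocyte and Flt1 and Slco1a4 of the endothelial markers. Of the neuron markers, Snap25, Nefl and Tubb3 were apart and the others overlapped. The mean of 7 microglia markers was 7.58, 7.51 and 7.64 against 7.13 to 7.70, with overlap. The means of oligodendrocyte precursor, choroid plexus and meningeal fibroblast markers overlapped as well. Of the 9 endothelial markers, 4 were called higher in each genotype, and of the 9 myeloid markers 2 were called higher in the wild type and 2 higher and 2 lower in the knockout. The part of any of these cell types in the values of the 42 genes was not tested.

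**Figure D5:**
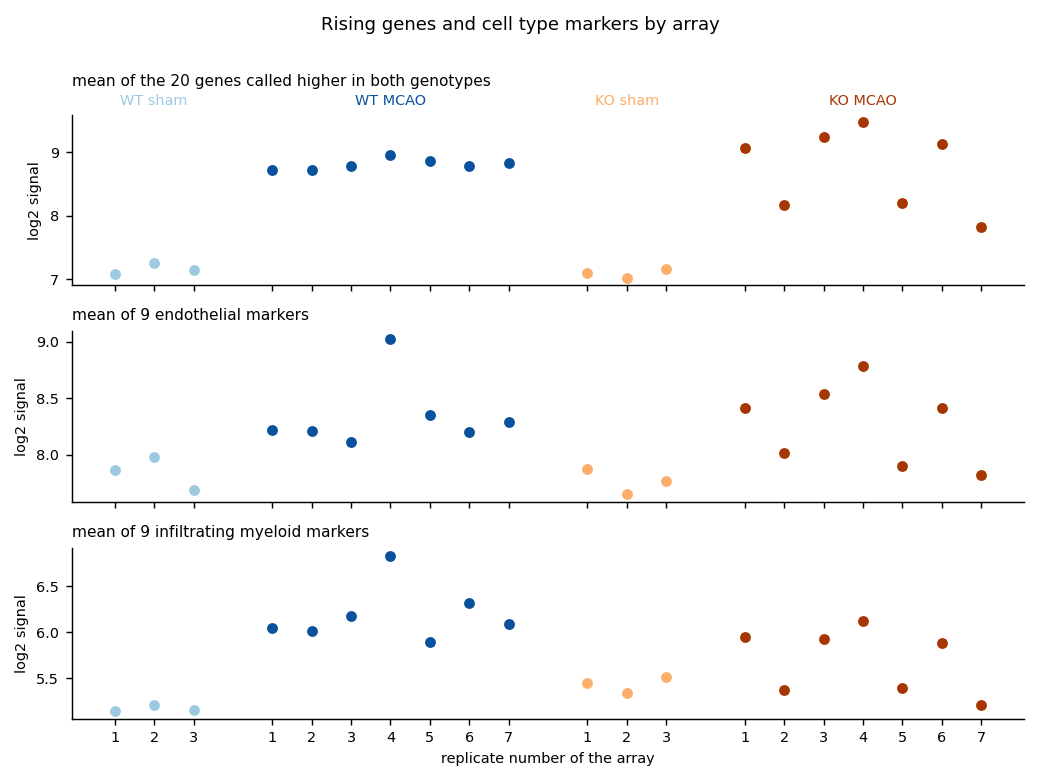
Mean log2 signal, in each of the 20 surgery arrays, of the 20 genes called higher in both genotypes, of 9 endothelial markers and of 9 infiltrating myeloid markers (1 point per array, by replicate number within its group). KO MCAO arrays 2, 5 and 7 were lower than KO MCAO arrays 1, 3, 4 and 6 in all 3 panels, in the myeloid panel through S100a8 and S100a9.

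The lists of other genes of matrix biology held 123 measured of 131 listed genes. In the wild type 35 were called higher and 10 lower, against 8.68% and 7.27% of all genes. In the knockout 41 were called higher and 10 lower, against 16.1% and 8.9%. The median changes were 0.19 and 0.21. All lists were chosen with earlier results of these data known, so a contrast of their shares with those of the 42 genes is no separate result. The list of further protease inhibitors held a TIMP gene that rose: Timp1, the inducible inhibitor, went from a sham mean of 6.03 to 10.10 in the wild type (4.07 ± 0.41) and from 6.42 to 9.75 in the knockout (3.32 ± 0.41), larger in the wild type than the change of any of the 42 genes. Serpina3n, an astrocyte serine protease inhibitor, rose by 2.24 ± 0.21 and 2.31 ± 0.21. Among the plasmin partners, Anxa2 and S100a10, which form a cell surface receptor for plasminogen and its activator, rose by 2.72 ± 0.32 and 1.33 ± 0.17 in the wild type and by 2.81 ± 0.32 and 1.66 ± 0.17 in the knockout. Of 21 further integrins and matrix receptors, 4 were called higher and 1 lower in the wild type, and 7 higher and 2 lower in the knockout. The rises were led by Cd44, the hyaluronan receptor (3.72 ± 0.29 and 4.35 ± 0.29), and Sdc1, syndecan 1 (1.86 ± 0.33 and 2.42 ± 0.33).

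Of 9 further matrix metalloproteinases none was called higher in either genotype, with Mmp17 called lower in the wild type (−0.59 ± 0.17) and Mmp7 and Mmp23 lower in the knockout (−0.45 ± 0.13 and −0.33 ± 0.12). At an unadjusted p under 0.05, 4 of these 9 passed limma's test in the wild type and 2 in the knockout, where 5646 and 7030 of all 18193 genes did. Of 10 genes of the perineuronal net and hyaluronan, the compartment of Bcan, 3 were called lower and 1 higher in the wild type and 2 lower in the knockout. Over all genes 7.27% and 8.9% were called lower. Cspg5, neuroglycan C (−0.81 ± 0.15 and −0.54 ± 0.15), was called lower in both. Hapln1, a link protein that joins lecticans to hyaluronan, fell by 1.31 on the log2 scale in the wild type (SE 0.26). Of 10 other collagens 6 were called higher in the wild type and 5 in the knockout. Of 13 collagen maturation genes 6 and 9 were called higher, led by Tgm2, a protein cross-linking transglutaminase (2.87 ± 0.33 and 3.09 ± 0.33), and 1 was called lower in the wild type. Of 14 further basement membrane genes 3 were called higher and 1 lower in the wild type, and 2 higher and 2 lower in the knockout. Of 16 further ADAM and ADAMTS genes 2 were called higher and 1 lower in the wild type, and 3 higher and 1 lower in the knockout. In either direction, 28.6% and 18.8% of these lists were called in the wild type, against 15.9% of all genes. In the knockout 28.6% and 25% were called, against 25% of all genes. Of 18 matricellular and elastic fibre genes 9 were called higher and 1 lower in each genotype, and the higher ones included Fbln2, fibulin 2 (0.97 ± 0.16 and 0.72 ± 0.16).

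In the naive arrays, 11 of the 42 genes were called between genotypes, 9 higher and 2 lower in the knockout, against 6.37% and 8.31% of all genes. Of the 42 genes, 7 lay entirely higher and 2 entirely lower in the KO arrays, against 5.54% and 5.26% of all genes. After centring of the arrays on their medians, 6 of the 42 were called higher and 4 lower, and the split over all genes went from 1158 higher and 1511 lower to 329 and 3390, with the median difference of all genes going from 0.05 to −0.10. The WT and KO naive arrays shared no exactly equal value between genotypes, while pairs of KO naive arrays shared 1744 to 2878 and pairs of WT naive arrays 1 to 48; the 1st percentile of all probe sets was 3.90 to 4.15 in WT and 3.61 to 3.68 in KO arrays. Genotype and processing therefore cannot be told apart, and the values are given as measured. Thbs2 was 5.99 to 6.25 (median 6.21) in 8 WT and 6.64 to 6.95 (median 6.75) in 7 KO arrays, 0.60 ± 0.06 higher in the knockout (limma, adjusted p = 4.35e-05). Mmp3 was 4.38 to 4.93 (median 4.55) in WT and 4.97 to 5.24 (median 4.99) in KO arrays, and Mmp12 was 4.44 to 4.88 (median 4.60) and 3.99 to 4.26 (median 4.19). Neither gene overlapped between the genotypes.

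Mmp14 was 7.30 to 8.32 (median 8.11) in WT and 8.55 to 8.77 (median 8.63) in KO naive arrays, and Col1a1 was 6.82 to 7.51 (median 7.04) and 7.64 to 7.95 (median 7.70). Bgn was 8.08 to 8.68 (median 8.35) and 8.75 to 8.88 (median 8.79), and Col4a2 was 8.17 to 9.18 (median 8.98) and 9.21 to 9.70 (median 9.32). These 4 genes did not overlap either. Tnc was 5.9995 to 7.01 (median 6.39) and 6.92 to 7.27 (median 7.03), Adamts9 6.94 to 7.30 (median 7.08) and 7.21 to 7.50 (median 7.31), and Plaur 6.06 to 6.38 (median 6.27) and 6.29 to 6.71 (median 6.52), each called higher in the knockout with overlapping values. Plau was 5.5772 to 6.78 (median 5.84) in WT and 5.22 to 5.5769 (median 5.47) in KO arrays, so that the lowest WT and the highest KO array nearly touched, and was called lower (limma, adjusted p = 0.0460). Without WT naive array 6, 20 of the 42 genes were called higher and 4 lower, where 24.1% and 12.4% of all genes were.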

How the data were processed

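RNA of 35 samples was hybridised to Affymetrix mouse arrays. The authors deposited 1 log2 value per probe set and array; the submitters' processing notes name RMA, whose version is not given in the sources used here. Per the series' design text, naive and surgery arrays were normalized independently. Of 45101 probe sets, 64 were controls, 34945 named 1 gene, 932 several and 9160 none; 34741 were matched by Entrez ID. The brightest probe set on average stood for each of the 18193 genes.

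Linear models were fitted with limma 3.58.1 (R 4.3.3; empirical Bayes moderation) to the 20 surgery arrays and, apart, to the 15 naive arrays, and p-values were adjusted over all genes (Benjamini-Hochberg, called under 0.05). Standard errors and 95% confidence intervals are limma's moderated ones. The code was tested on simulated data. Correlations used 100000 permutations, or all of them within a genotype, in Python 3.11.15 with scipy 1.17.1. Array number limits the precision, and detection calls are not used here.

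The genes and lists were chosen with earlier results of these data known. Named genes were the 10 largest rises and 5 largest falls called in either genotype, genes called between genotypes, the uncalled gene with the largest change per role, and up to 2 called genes per list of other matrix genes; further genes were named to account for all 42. The deleted gene itself is not analysed here. Alternatives covered the variance prior, dim genes, probe set choice, scaling, array weights, replicate numbers, threshold, single arrays, close pairs and actin.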

Additional observations from a re-analysis of the deposited data

Results flagged for a closer look

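In 10 of 86 checks (11.6%), the highest or lowest array lay far from the other arrays of its group by Dixon's criterion. The checks were the 42 genes in each MCAO group and a summary of each naive group. The same arrays recur across genes, so this share cannot be set against the 1 in 20 that chance gives for independent groups. WT MCAO array 4 was lowest for Tnc (7.90) and Mmp3 (7.42) and highest for Adamts1 (10.6) and Plaur (9.17). KO MCAO array 7 was lowest for Col3a1 (6.38), Postn (6.13), Vcan (6.34) and Plat (8.90). KO MCAO array 4 was highest for Mmp2 (6.78). In the WT naive group, array 6 had a median absolute distance of the 42 genes from their group medians of 0.723, and the next largest was 0.124.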

How the results depend on the processing

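The numbers of the 42 genes called higher after MCAO stayed within 1.5 times the main numbers under every alternative run (WT 15 to 27, KO 18 to 29); leaving out arrays gave 16 to 24 and 18 to 28. The single lower call of the wild type, Bcan, was lost after repeated quantile normalization and at an adjusted p under 0.01 (0 genes each); leaving out arrays gave 0 to 1. With array weights 3 genes were called higher in the interaction, and after sham 1 higher and 4 lower, where 22.5% and 32.4% of all genes were called. Fitting only the arrays compared gave 1 higher after sham, where 19% of all genes were called. The actin covariate gave 1 higher and 1 lower after MCAO. Leaving out arrays gave 0 to 1 higher in the interaction, 0 to 1 higher after MCAO and 0 to 1 lower after sham. Between naive arrays, without dim genes 2 were higher and 0 lower, with centring 4 lower, with repeated quantile normalization 4 higher, with array weights 22 higher and 5 lower, at an adjusted p under 0.01 1 lower, and leaving out arrays 6 to 20 higher and 1 to 4 lower. The shares of all genes are not given here for these naive counts, so the counts describe the settings only. Without dim genes, which leaves 60 of the 123 other matrix genes, 22 were higher in the wild type, and 23 higher and 3 lower in the knockout. Of all genes left, 9.39% were called higher in the wild type, and 26.3% higher and 4.82% lower in the knockout. The causes were not tested. Over all genes, the split of higher and lower calls in the interaction went from 744 and 1000 to 1176 and 591 with centring and 75 and 264 with repeated quantile normalization, and after sham from 641 and 460 to 451 and 495, and 259 and 44.

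Replicate numbers did not pair the arrays: the correlation of same-numbered deviations was −0.204 to 0.336 after MCAO. With the replicate number as a block, 20 genes were called higher in WT and 29 in KO, against 5.95% and 14% of all genes. Between naive arrays 1 was called lower. Fn1, Thbs1 and Mmp12 lost their WT call, Lum gained one, and Col1a1, Lox and Timp3 gained a KO call.

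The correlation of 0.754 for Col1a1 and Col1a2 within KO did not pass. For Mmp3 and Mmp12 r was 0.85 over the 14 MCAO arrays (permutation test, adjusted p = 0.00714) and 0.914 within KO (exact permutation test, adjusted p = 0.0376). Within KO rho was 0.75 (adjusted p = 0.0994). Within WT r was 0.576 and did not pass. For Col4a1 and Col4a2 r was 0.888 and rho 0.785 over the 14 MCAO arrays (permutation test, adjusted p = 0.011 and 0.0486). Within KO r was 0.937 and rho 0.75 (exact permutation test, adjusted p = 0.0131 and 0.0994). Within WT r was −0.271 (exact permutation test, adjusted p = 0.571). It was 0.851 without the 2 farthest arrays and 0.884 with close pairs averaged, and neither passed (permutation test, adjusted p = 0.0898 and 0.0628). For Tnc and Thbs1 r was 0.8175 and rho 0.701 over the 14 MCAO arrays (permutation test, adjusted p = 0.0204 and 0.0609). Without the 2 farthest arrays r was 0.677 (adjusted p = 0.192). It was −0.698 within WT and 0.9705 within KO (exact permutation test, adjusted p = 0.133 and 0.00476). With close pairs averaged it was 0.799 (permutation test, adjusted p = 0.0994). The KO arrays fell into separate ranges, and the part of these ranges in the correlations was not tested. RNA quality, dim probe sets and groups of 3 sham arrays limit all values.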
